A study of Mus musculus with 12 samples.

Results

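Regulators of G-protein signaling (RGS proteins) switch off signals that leave G-protein coupled receptors, and 8 of their genes were followed here in mouse peritoneal macrophages (PMφs). The genes, Rgs1, Rgs2, Rgs3, Rgs10, Rgs14, Rgs16, Rgs18 and Rgs19, were picked by symbol, and they are 8 of 43278 symbols in the expression table and 8 of the 21 Rgs genes with a number in it. All 8 reached 10 in 3 or more of the libraries, as did 2 numbered Rgs genes that were not picked, Rgs11 and Rgs12. The pick was made with earlier results of these same libraries in view, so the levels and group differences of the 8 genes are given as a description, and their calls support nothing further.

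PMφs were thioglycolate-elicited cells of wild-type C57BL/6J mice 8 to 12 weeks old, harvested by lavage on day 4 and used once they had adhered for 18 h. The 12 libraries were made from poly(A) RNA, 3 in each of 4 groups. Control PMφs received neither agent, oxLDL PMφs were cultured for 24 h with 100 µg/ml of human oxidized low-density lipoprotein, the particle that turns Mφs into foam cells, LPS PMφs received 10 ng/ml of ultrapure lipopolysaccharide, a ligand of TLR4, and oxLDL+LPS PMφs received the lipoprotein and then LPS. How long LPS was left on these cultures is not given, and the methods describe stimulations of up to 6 h. Values are normalized counts, which are reads over exons divided by a size factor of the library and rounded.

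A heterotrimeric G protein consists of an α subunit that binds GTP and a βγ pair. An activated receptor loads the α subunit with GTP, α and βγ then act on enzymes and channels, and the signal lasts until the α subunit hydrolyzes its GTP. The RGS domain speeds that hydrolysis, so RGS proteins shorten the responses of leukocytes to chemokines, prostaglandins, adenosine and other ligands of these receptors. Rgs1, Rgs2, Rgs3, Rgs16 and Rgs18 belong to the R4 subfamily, whose members are mostly small and consist of little more than the RGS domain, Rgs10 and Rgs14 belong to the R12 subfamily, and Rgs19 belongs to the RZ subfamily.

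The libraries held macrophage transcripts at high levels, with 8 macrophage markers summing to between 231967 and 347950 per library. The 9 transcripts chosen as a check of LPS summed to between 1298 and 1565 without LPS and to between 201432 and 712580 with it, as the labels say. The 4 transcripts chosen as a check of oxLDL summed to between 66590 and 75456 in control and to between 97183 and 144981 with oxLDL. They summed to between 49963 and 56736 with LPS and to between 73511 and 137789 with oxLDL+LPS. Columns summed to between 17152972 and 17709731 normalized counts without LPS and to between 22071853 and 26384551 with it. Replicate numbers are shared by the groups, and one of them did not hold the same mixture of animals throughout. The X-linked Xist was at 1 and 2 in control and oxLDL replicate 1 and at 6331 and 3812 in LPS and oxLDL+LPS replicate 1, where the Y-linked Ddx3y went from 1156 and 1132 to 459 and 439. Replicate 2 held Ddx3y at 0 to 2 in all groups, and replicate 3 held both transcripts in all groups. Xist was between 5933 and 7751 in replicate 2 and between 3538 and 4217 in replicate 3. Number 1 thus differed across LPS, and the log2 fold changes of the 8 genes and the counts of the gene lists across LPS are given with and without it.

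On the GRCm38 build, 4 of the 8 genes lie on chromosome 1. Rgs2 (chr1:143999338-144004161), Rgs1 (chr1:144242296-144249242) and Rgs18 (chr1:144752683-144775435) are on the minus strand of one cluster of R4 genes, and Rgs16 (chr1:153740349-153745468) is on the plus strand apart from it. Between them lie Rgs13, 134.5 kb from Rgs2 and 64.9 kb from Rgs1, and Rgs21, 267.4 kb from Rgs1 and 185.0 kb from Rgs18, and both of these stayed under 10 in all libraries. Rgs3 lies at chr4:62559847-62704001 on the plus strand, Rgs10 at chr7:128373621-128418758 on the minus strand, Rgs14 at chr13:55369732-55384687 on the plus strand and Rgs19 at chr2:181688419-181693977 on the minus strand. Neighbours in the chromosome 1 cluster moved in opposite directions with LPS, Rgs1 upward and Rgs2 and Rgs18 downward. The exons of Rgs16 share 236 bases (10.09% of its exonic length) with the antisense gene Gm28513, which was counted at 0 to 2 per library, and the exons of the other 7 genes share no base with another gene.

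RefSeq promoter sequences matched 5 of the 8 genes, and the 250 bases before the start are printed for the genes with the largest fall (Rgs2) and the largest rise (Rgs16) with LPS and for Rgs10, the most abundant of the 8 per kilobase in control cells. Capitals mark matches to TGACG, the core of the site bound by CREB and ATF proteins, on either strand (CGTCA on the strand shown). The Rgs2 window is chr1:144004150-144004399, minus strand, the Rgs16 window is chr1:153740103-153740352, plus strand, and the Rgs10 window is chr7:128418173-128418422, minus strand, all on GRCm38.p6. A RefSeq start need not be the outermost start of its gene. The Rgs10 window lies inside the gene span given above, as do the windows chr2:181691818-181692067 of Rgs19 and chr4:62619422-62619671 of Rgs3.
Rgs2: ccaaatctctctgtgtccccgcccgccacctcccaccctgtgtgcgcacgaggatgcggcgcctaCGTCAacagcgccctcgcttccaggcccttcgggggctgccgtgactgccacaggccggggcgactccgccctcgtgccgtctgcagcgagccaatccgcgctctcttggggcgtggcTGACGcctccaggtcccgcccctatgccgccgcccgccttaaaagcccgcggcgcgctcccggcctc
Rgs16: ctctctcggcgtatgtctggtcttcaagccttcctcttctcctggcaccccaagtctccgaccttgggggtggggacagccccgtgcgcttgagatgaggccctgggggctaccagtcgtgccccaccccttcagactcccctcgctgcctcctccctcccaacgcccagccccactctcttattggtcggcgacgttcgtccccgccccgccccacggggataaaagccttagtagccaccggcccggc
Rgs10: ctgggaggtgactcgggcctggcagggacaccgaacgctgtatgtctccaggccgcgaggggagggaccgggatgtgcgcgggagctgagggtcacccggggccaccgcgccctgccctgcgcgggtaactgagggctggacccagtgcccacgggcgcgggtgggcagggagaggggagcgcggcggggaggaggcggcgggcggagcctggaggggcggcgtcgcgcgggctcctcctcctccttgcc
The Rgs2 window held 2 TGACG matches, 185 to 181 and 67 to 63 bases before the start, and the 7 windows of Rgs3, Rgs10, Rgs16 and Rgs19 held none. A TGACG match stood in 17.77% of all 32851 promoter windows of this length. The κB motif and TGANTCA, the AP-1 motif, were searched on both strands too, stood in 3.9% and 6.75% of all windows, and matched none of the 8 windows of these genes.

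In control PMφs the 8 genes differed widely in level. Per kilobase of the longest principal transcript, Rgs10 was the most abundant with 1055 normalized counts per kilobase, followed by Rgs19 with 675, Rgs1 with 418 and Rgs2 with 313. Rgs14 with 94.2, Rgs18 with 89.1, Rgs3 with 25.1 and Rgs16 with 7.84 normalized counts per kilobase were lower. Libraries of Rgs1 and Rgs2 overlapped, as did those of Rgs14 and Rgs18, and the other neighbours in this order did not overlap. Rgs3 has many isoforms, and the annotation of Rgs1 holds transcripts with retained introns, so the length is uncertain for both. With all annotated exonic bases as the length, Rgs1 stood at 231 and Rgs2 at 260 normalized counts per kilobase, so that this pair traded places. Rgs14 and Rgs18 did so too, at 52.4 and 89.1.

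LPS reordered the family. In LPS PMφs Rgs1 stood first with 1347 normalized counts per kilobase, and its 3 libraries did not overlap those of the next gene. Rgs10 with 499, Rgs19 with 476 and Rgs14 with 453 followed and overlapped in sequence, whereas Rgs2 with 66.2, Rgs3 with 53.3, Rgs16 with 46.9 and Rgs18 with 24.3 formed a low group in which each gene overlapped the next. With all exonic bases as the length Rgs1 was again first, Rgs19 with 323 stood above Rgs10 with 257, and Rgs3 with 19.2 came last, below Rgs16 with 46.9 and Rgs18 with 24.3. Of the level summed over the 8 genes, Rgs1 held 15.8% ± 4.03 in control and 45.1% ± 4.88 in LPS (SD, n = 3). Rgs14 went from 3.51% ± 0.21 to 15.4% ± 2.18, Rgs10 from 39.2% ± 4.55 to 16.9% ± 3.34 and Rgs2 from 11.7% ± 1.27 to 2.30% ± 1.02. The summed level itself was 2677 ± 215 in control, 2843 ± 99.8 in oxLDL, 2966 ± 284 in LPS and 2554 ± 448 in oxLDL+LPS normalized counts per kilobase, with libraries of control and LPS overlapping.

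**Figure D1:**
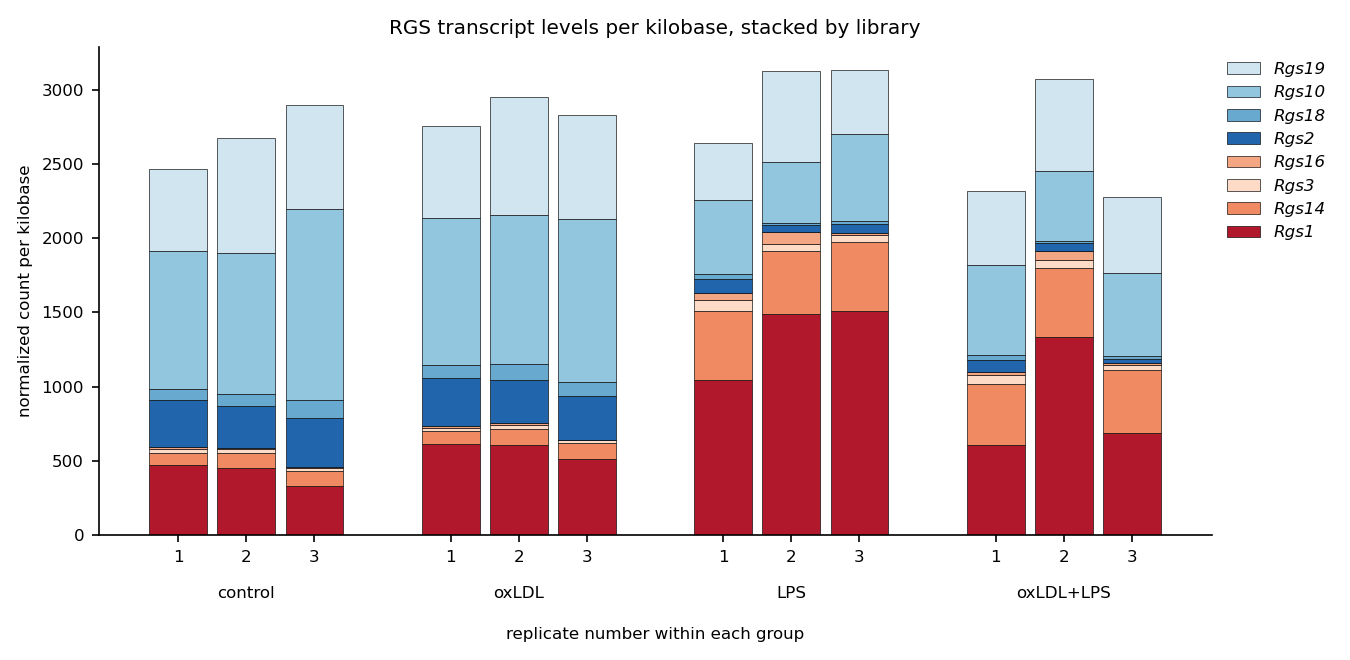
Stacked bars of normalized counts per kilobase of the longest principal transcript, 1 bar per library, with the 12 libraries in their 4 groups and 1 color per gene. The column heights of the control and LPS libraries overlap, while the share of Rgs1 goes from 15.8% to 45.1% on average and that of Rgs10 from 39.2% to 16.9%.

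LPS was compared with control first. All 8 genes had an adjusted p under 0.1, the threshold of a call here, in a limma fit across all genes, a linear model that borrows the variance of each gene from the others, 4 higher (Rgs1, Rgs3, Rgs14, Rgs16) and 4 lower (Rgs2, Rgs10, Rgs18, Rgs19), where 61.7% of the 13023 genes tested passed (31.4% higher and 30.3% lower). In 7 of the 8 genes the 3 LPS libraries did not overlap the 3 control libraries, as in 63.2% of all genes tested. The median log2 fold change was 0.27 over the 8 genes and -0.001 over all genes tested, and the median of its size regardless of sign was 1.79 and 0.54. In these bulk libraries a change in RNA per cell cannot be told apart from a change in the number of cells that hold the transcript. With the columns rescaled to the same sum, the median of all genes moved by -0.48 on the log2 scale and the split of called genes went from 4093 higher and 3946 lower to 2208 higher and 7200 lower, and the 8 genes kept their directions.

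Rgs1, a regulator of chemokine receptor signals in leukocytes, was read at 1822, 1730 and 1265 in control replicates 1 to 3 and at 4002, 5726 and 5797 in the LPS libraries. All LPS libraries were above all control libraries, and the log2 fold change was 1.69 ± 0.19 (SE), a 3.22-fold rise. Rgs14, which carries a GoLoco motif that holds Gαi in its GDP state as well as the RGS domain, was at 190, 232 and 244 in control and at 1105, 995 and 1102 with LPS. Its libraries were the most even of the rising genes, and the log2 fold change was 2.27 ± 0.12, a 4.81-fold rise.

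Rgs16, an R4 gene that immune stimuli induce in several leukocytes, was at 31, 18 and 6 in control and at 118, 177 and 34 with LPS. Replicate 3 was the lowest in each group, so the LPS library of replicate 3 was close to the control library of replicate 1, although the groups did not overlap. The log2 fold change was 2.48 ± 0.72, a 5.58-fold rise that rests on low counts. With the replicate number as a block, which compares libraries within a number, its SE was 0.30. Without replicate 2 the log2 fold change was 2.11, and its adjusted p in the limma fit without the block was 0.122. Rgs3, which acts on both Gαi and Gαq, was at 87, 124 and 82 in control and at 270, 191 and 161 with LPS. These groups did not overlap either, and the log2 fold change was 1.07 ± 0.24, a 2.10-fold rise. With the columns rescaled to the same sum it was 0.59 with an adjusted p of 0.101 in the limma fit.

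Among the genes that fell, Rgs2, which prefers Gαq as its target, was at 972, 852 and 1009 in control and at 276, 146 and 178 with LPS. No LPS library reached the lowest control library, and the log2 fold change was -2.28 ± 0.22, a 4.86-fold fall. Rgs18, a gene of platelets and myeloid cells, was at 142, 156 and 245 in control and at 71, 32 and 45 with LPS. The groups did not overlap, and the log2 fold change was -1.89 ± 0.33, a 3.70-fold fall.

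Rgs10, known in microglia and Mφs as a restraint on inflammatory gene expression, was at 819, 838 and 1129 in control and at 441, 360 and 516 with LPS. All LPS libraries were below all control libraries, and the log2 fold change was -1.08 ± 0.17, a 2.11-fold fall. Rgs19, also called GAIP, a regulator of Gαi and Gαz, was at 832, 1171 and 1057 in control and at 574, 933 and 651 with LPS. Here the groups overlapped, since LPS replicate 2 was above control replicate 1, and the log2 fold change was -0.52 ± 0.20 with an adjusted p of 0.0607 in the limma fit. Within each replicate number Rgs19 was lower with LPS, by -0.53, -0.33 and -0.70 on the log2 scale, and the blocked SE was 0.10. The call of Rgs19 was lost on leaving out control replicate 2, control replicate 3, LPS replicate 1 or LPS replicate 3, where the log2 fold change was -0.41, -0.49, -0.37 and -0.46, and on leaving out both libraries of replicate 3, where it was -0.43.

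All 8 genes were called with the replicate block as well, where 68.7% of genes tested were. All 8 remained called when replicate 1 was left out, with or without the block. Of all 12092 genes then tested, 54.2% were called without the block, and 4138 were called higher and 3947 lower with it. The log2 fold changes were then 1.96 for Rgs1, 2.13 for Rgs14, 2.77 for Rgs16 and 0.79 for Rgs3, and -2.52 for Rgs2, -2.33 for Rgs18, -1.17 for Rgs10 and -0.51 for Rgs19.

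Markers of other cells changed alongside. The 4 eosinophil markers summed to between 319 and 385 in control and to between 104 and 125 with LPS, nearly all of it Siglecf, while Prg2 was at 0 in every library. The 7 T and NK cell markers summed to between 33 and 49 in control and to between 109 and 244 with LPS. Of these, Lck, a kinase of T cells, was called higher (3.20 on the log2 scale), and Cd3d, Cd3e, Cd3g and Ncr1 stayed at no more than 2 in all libraries. The 6 neutrophil markers summed to between 33 and 37 in control and to between 79 and 179 with LPS. S100a8 was called higher (1.65 on the log2 scale), and Ly6g was at 0 in every library. Sums of the 6 mast cell markers went from between 58 and 65 to between 74 and 107, and Kit was called higher (1.44 on the log2 scale). Cpa3, Tpsb2 and Cma1 were not called, and Mcpt4 and Fcer1a stayed at no more than 5 in all libraries. Those of the 5 dendritic cell markers, at 57 to 103 and 99 to 142, overlapped. Among these, Zbtb46 (0.996) and Ccr7 (2.68) were called higher and Clec9a (-2.16) lower on the log2 scale. Sums of the 5 B cell markers, at 42 to 59 and 41 to 86, overlapped too. The 6 platelet markers, among them the defining Gp9 and Gp1bb at no more than 2, summed to between 293 and 375 in control and to between 418 and 535 with LPS, nearly all of it Pf4, which was at 273 to 720 in a library. The part of these cells in the changes of the 8 genes was not tested.

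**Figure D2:**
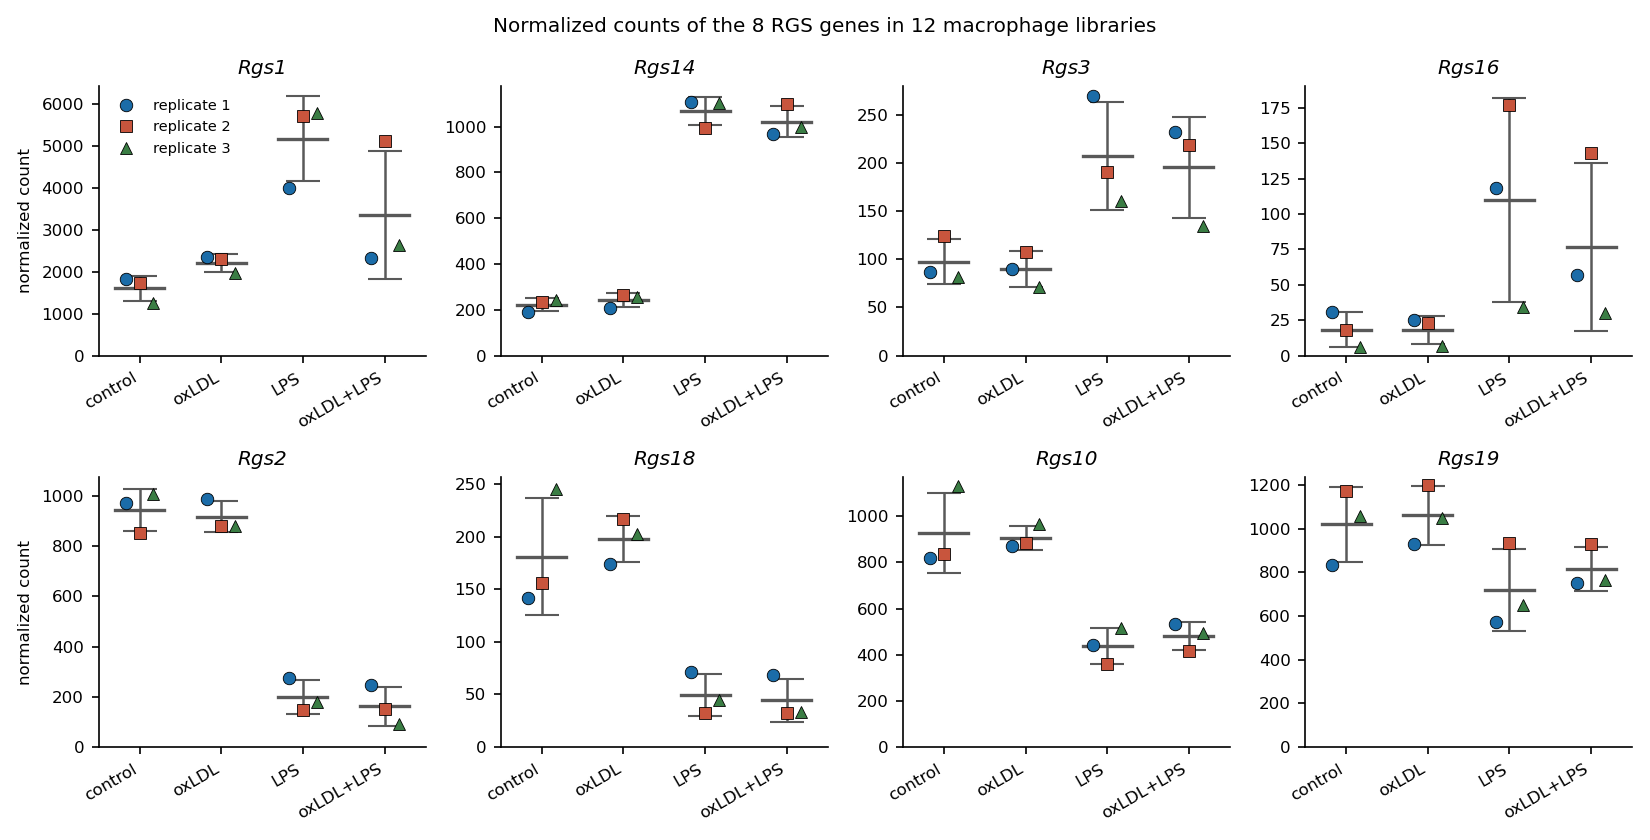
Normalized counts of the 8 genes in the 12 libraries, 1 panel per gene on a linear axis from 0, with circles, squares and triangles for replicates 1, 2 and 3 and bars for the mean and SD of 3 libraries. Rgs1, Rgs14, Rgs3 and Rgs16 (top) sit higher with LPS, and Rgs2, Rgs18, Rgs10 and Rgs19 (bottom) sit lower, with an overlap of the control and LPS groups in Rgs19.

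The response to LPS in cells loaded with oxLDL was compared next, using the other 6 libraries. Over the 8 genes the median log2 fold change was 0.07, against -0.0176 over all genes tested, and the median of its size was 1.5 and 0.46. In the fit without the block 3 of the 8 genes were called higher and 4 lower, where 54.5% of 12900 genes were called (28.2% higher and 26.3% lower), and Rgs1 was the one left out. With the block 4 were higher and 4 lower, where 63.4% of genes were called. In 6 of the 8 the groups did not overlap, as in 57.6% of all genes tested. Rgs14 was at 206, 264 and 257 with oxLDL and at 969, 1098 and 996 with oxLDL+LPS. Its log2 fold change was 2.08 ± 0.12, and the groups lay far apart as they did without oxLDL. Rgs3 was at 90, 108 and 71 and then at 232, 219 and 135, a log2 fold change of 1.10 ± 0.26 without overlap.

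Rgs16 was at 25, 23 and 7 with oxLDL and at 57, 143 and 30 with oxLDL+LPS. Replicate 3 was again the lowest of each group, the groups did not overlap, and the log2 fold change was 1.90 ± 0.66. Its call was lost without oxLDL replicate 3 (1.35), without oxLDL+LPS replicate 2 (1.31), and without either of replicates 1 and 2 as a whole (2.27 and 1.56).

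Rgs2 was at 989, 882 and 880 with oxLDL and at 246, 150 and 90 with oxLDL+LPS, a log2 fold change of -2.61 ± 0.32. Rgs18 was at 174, 217 and 202 and then at 68, 32 and 33, a log2 fold change of -2.21 ± 0.30. Rgs10 was at 871, 883 and 966 and then at 532, 415 and 496, a log2 fold change of -0.92 ± 0.12. In each of these the oxLDL+LPS libraries lay below all oxLDL libraries. Rgs19 was at 932, 1201 and 1051 and then at 752, 932 and 765, a log2 fold change of -0.38 ± 0.13 with groups that met at 932. Its call was lost without oxLDL replicate 2 (-0.28), oxLDL replicate 3 (-0.38), oxLDL+LPS replicate 1 (-0.32) or oxLDL+LPS replicate 3 (-0.33), and without replicate 3 as a whole (-0.34).

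Rgs1 was the exception among oxLDL-loaded cells. It was at 2349, 2317 and 1966 with oxLDL and at 2321, 5120 and 2643 with oxLDL+LPS. Replicate 1 was no higher, replicates 2 and 3 were above every oxLDL library, and the groups overlapped. The log2 fold change was 0.52 ± 0.28, with an adjusted p of 0.168 in the limma fit and of 0.0701 with the block. Without oxLDL+LPS replicate 1 it was 0.74 and was called. With the block, leaving out replicate 2 or replicate 3 ended the call, at 0.20 and 0.56, and leaving out replicate 1 kept it, at 0.79. Without replicate 1 the log2 fold changes of the other genes were 2.00 for Rgs14, 0.97 for Rgs3, 2.27 for Rgs16, -2.91 for Rgs2, -2.65 for Rgs18, -1.02 for Rgs10 and -0.41 for Rgs19. Those of Rgs1 and Rgs16 were then not called in the fit without the block, where 44.7% of all 12113 genes tested were called. With the columns rescaled to the same sum, the median of all genes moved by -0.40 in this comparison, with 2055 genes higher and 6623 lower in place of 3633 and 3397.

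oxLDL alone was compared with control, using the same control libraries as above, to ask what lipid accumulation does to the family without LPS. The limma fit without the block called 0 of the 8 genes and 0 of 12751 genes, with 381 genes at an unadjusted p under 0.05. With the block, which compares libraries of the same number, 1 of the 8 (Rgs1) was called, where 4.71% of genes were called. Rgs1 was at 1822, 1730 and 1265 in control and at 2349, 2317 and 1966 with oxLDL. Every oxLDL library was above every control library, as in 3.79% of all genes tested, and the log2 fold change was 0.47 ± 0.15 with an adjusted p of 1 without the block and of 0.00141 with it (SE 0.06). Number by number the difference was 0.37, 0.42 and 0.64 on the log2 scale. Leaving out replicates 1, 2 and 3 in turn gave 0.53, 0.50 and 0.39, each called with the block.

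The other 7 genes differed little between oxLDL and control. Log2 fold changes were -0.04 ± 0.09 for Rgs2, -0.12 ± 0.22 for Rgs3, -0.02 ± 0.13 for Rgs10 and 0.13 ± 0.14 for Rgs14. For Rgs16, Rgs18 and Rgs19 they were 0.08 ± 0.67, 0.16 ± 0.21 and 0.06 ± 0.14. Groups overlapped in all 7, and none was called with or without the block. The median over the 8 genes was 0.07, against -0.0051 over all genes tested. The SE was widest for Rgs16, whose counts are the lowest of the 8, and narrowest for Rgs2.

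oxLDL+LPS was compared with LPS alone, which shares its LPS libraries with the comparison of LPS and control. Of the 8 genes, 0 were called without the block, where 0 of 12786 genes were called and 890 had an unadjusted p under 0.05, and 1 (Rgs1, lower) was called with the block, where 13.2% of genes were called (8.74% lower). Rgs1 was at 4002, 5726 and 5797 with LPS and at 2321, 5120 and 2643 with oxLDL+LPS. Each replicate number was lower, replicates 1 and 3 by -0.79 and -1.13 and replicate 2 by -0.16 on the log2 scale, and the groups overlapped. The log2 fold change was -0.69 ± 0.31, with an adjusted p of 0.709 without the block and of 0.0291 with it. Leaving out replicate 1 or replicate 3 ended the call with the block, at -0.65 and -0.47, and leaving out replicate 2 gave -0.96.

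The remaining genes had overlapping groups in this comparison, and the median over the 8 was -0.13, against -0.0121 over all genes tested. Log2 fold changes were -0.37 ± 0.39 for Rgs2, -0.09 ± 0.27 for Rgs3, 0.14 ± 0.17 for Rgs10 and -0.06 ± 0.10 for Rgs14. For Rgs16, Rgs18 and Rgs19 they were -0.51 ± 0.73, -0.17 ± 0.41 and 0.21 ± 0.19. Rgs16 was lower in all 3 replicate numbers, by -1.04, -0.31 and -0.18, with an adjusted p of 0.159 with the block. Rgs14, the gene with the most even libraries, stood at 1067 ± 62.7 with LPS and at 1021 ± 68.0 with oxLDL+LPS.

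The interaction term asks whether the LPS difference itself changes with oxLDL, on all 12 libraries. It was called for 0 of the 8 genes and for 0 of 13482 genes in the limma fits with and without the block, where 418 genes had an unadjusted p under 0.05 without it. Rgs1 had the largest term of the 8 relative to its error, -1.17 ± 0.37, with an unadjusted p of 0.00927 and an adjusted p of 0.9999 in the limma fit. Its oxLDL difference was positive in 3 of 3 replicate numbers without LPS and negative in 3 of 3 with LPS. Without replicate 1 the term was -1.18 ± 0.42 with an adjusted p of 1 in the limma fit, and 0 of the 8 genes were called.

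**Figure D3:**
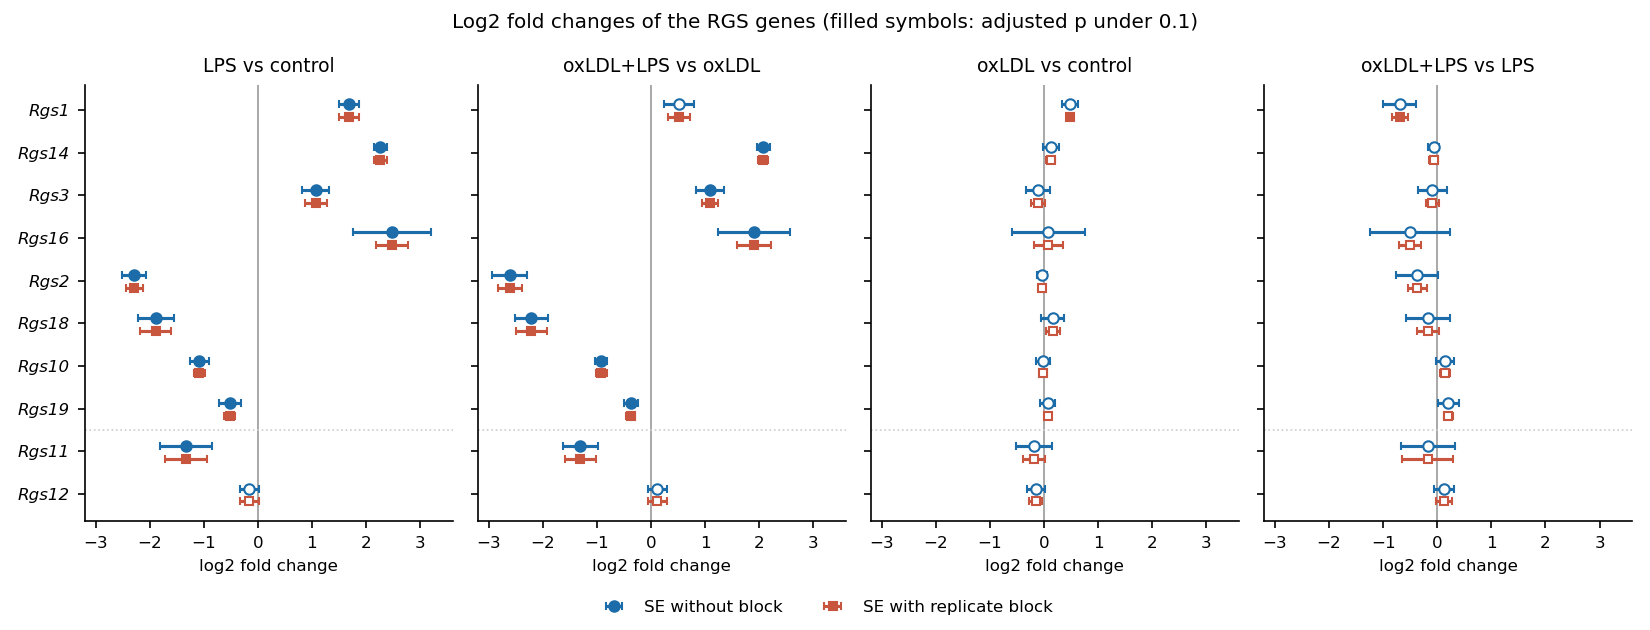
Log2 fold changes of the 8 genes and of Rgs11 and Rgs12 in 4 comparisons, with bars for the SE without the block (circles) and with the replicate block (squares) and filled symbols at an adjusted p under 0.1. The LPS comparisons (left) spread from about -2.61 to 2.48, and in the oxLDL comparisons (right) Rgs1 is the gene with a filled square.

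Some of the spread within groups followed the replicate number. Rgs16 was lowest in replicate 3 in all 4 groups, at 6, 7, 34 and 30. Col1a1, a collagen gene of fibroblasts, was lowest in replicate 3 in all 4 groups too, at 2054, 2193, 1965 and 1782, against 5517 to 12012 in replicates 1 and 2. In control and oxLDL both genes were highest in replicate 1. With LPS and oxLDL+LPS, Rgs16 was highest in replicate 2 (177 and 143) and Col1a1 in replicate 1 (12012 and 6800). The whole list of 6 mesothelial and fibroblast markers summed to between 2775 and 17135 per library, and its part in the level of Rgs16 was not tested. Between control and LPS the sums of that list overlapped, at 3114 to 13470 and 3121 to 17135.

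**Figure D4:**
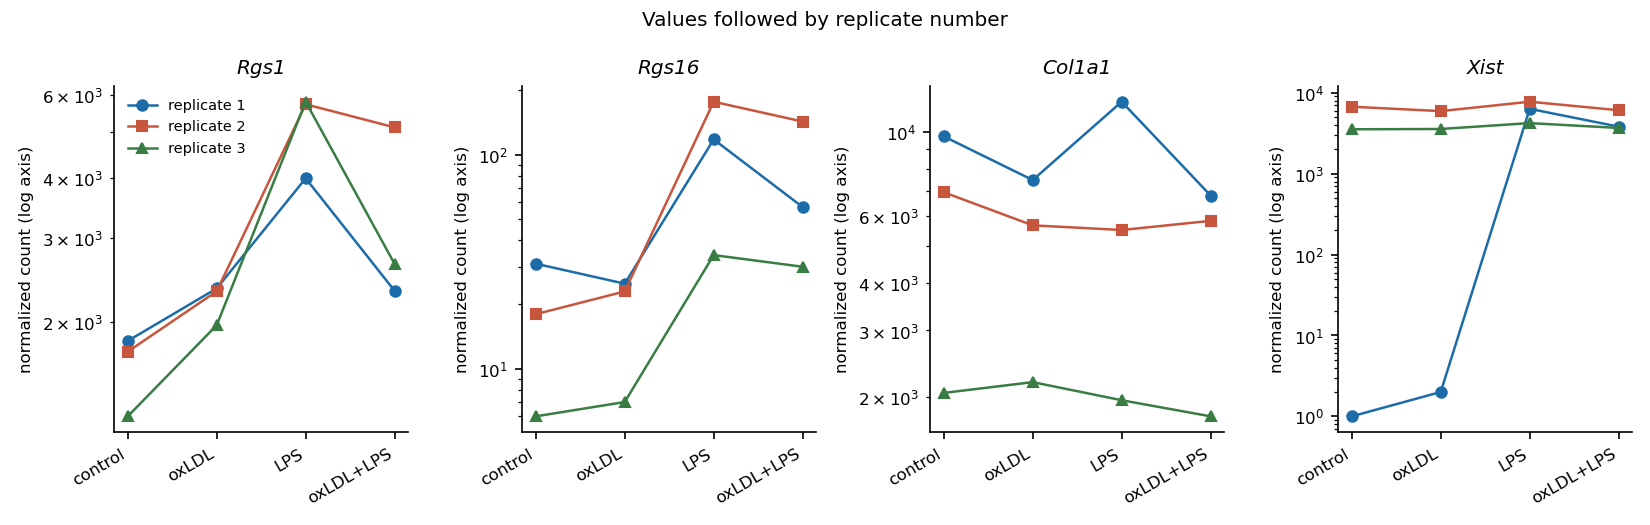
Normalized counts on log axes for Rgs1, Rgs16, the collagen gene Col1a1 and the X-linked Xist across the 4 groups, with 1 line per replicate number. Rgs16 and Col1a1 are lowest in replicate 3 in every group, Rgs1 is lower with oxLDL+LPS than with LPS in each number, and Xist of replicate 1 is at 1 and 2 without LPS and at 6331 and 3812 with it.

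Of the Rgs genes that were not picked, Rgs11, which pairs with the Gβ5 subunit, and Rgs12, a large R12 protein, passed the filter. Rgs11 was at 31, 61 and 28 in control and at 26, 14 and 8 with LPS, so all LPS libraries were lower, and the log2 fold change was -1.33 ± 0.48 with an adjusted p of 0.0475 in the limma fit. With oxLDL+LPS against oxLDL it was -1.31 ± 0.33 with an adjusted p of 0.0138. Rgs12 was at 96, 122 and 97 in control and at 107, 86 and 89 with LPS, and its log2 fold change of -0.16 ± 0.18 was not called. The highest value among all other numbered Rgs genes was 18, for Rgs17.

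Among 13 proteins outside the Rgs symbols that carry an RGS or related domain or a GoLoco motif, 12 were tested with LPS against control, of which 3 rose and 5 fell, where 61.7% of all genes tested were called. Without replicate 1 they were 2 and 5 of 11, where 54.2% of all genes were called. Gpsm2, a GoLoco protein that orients the mitotic spindle, rose from 266 ± 38.7 to 1279 ± 544 (SD, n = 3), a log2 fold change of 2.16 ± 0.33. Gpsm3, a GoLoco protein of leukocytes, fell from 1725 ± 148 to 927 ± 76.9, a log2 fold change of -0.89 ± 0.10. The sorting nexin Snx14 fell by 1.05 and its relative Snx13 rose by 0.28 on the log2 scale, while Snx25 stood at 420 ± 49.5 and 417 ± 113 and was not called. The exchange factors Arhgef1 and Arhgef11, whose RGS-like domain binds Gα12 and Gα13, fell by 0.61 and 0.49 on the log2 scale, and Arhgef12 had a log2 fold change of 0.19 ± 0.09 that was not called. Akap10, a kinase anchor, fell by 0.57, Axin1 of the β-catenin destruction complex rose by 0.24, and neither Axin2 nor Gpsm1 was called.

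The α subunits of G proteins changed in a mixed way with LPS, with 5 of 10 tested higher and 1 lower (4 and 1 without replicate 1), where 61.7% of all genes tested were called. Gna15, a Gq family subunit of blood cells, had a log2 fold change of 1.88 ± 0.15, Gnai3 of 0.58 ± 0.08 and Gna12 of -1.66 ± 0.09. Of 11 β and γ subunits tested 5 rose and 4 fell, among them Gnb4 with 3.27 ± 0.22, Gng12 with 1.02 ± 0.13 and Gng2 with -1.26 ± 0.09. Of 7 receptor kinases and arrestins, which turn off the receptors themselves, 2 rose and 5 fell. The arrestin Arrb1 fell from 4465 ± 663 to 319 ± 52.6, a log2 fold change of -3.80 ± 0.15, and the kinases Grk6 and Grk4 fell by 0.95 and 1.73. Of 4 chaperones and exchange factors of G proteins 2 fell, Pdcl by 0.37 and Ric8 by 0.29. Without replicate 1, where 54.2% of all genes were called, 5 of 10 β and γ subunits rose and 2 fell, 2 of 7 receptor kinases and arrestins rose and 4 fell, and 1 of the 4 chaperones and exchange factors fell.

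Of 29 G-protein coupled receptors of Mφs tested, 11 rose and 14 fell with LPS, where 61.7% of all genes tested were called. The formyl peptide receptor Fpr2 went from 3.0 ± 1.0 to 2083 ± 663, the niacin receptor Hcar2 from 3.3 ± 1.5 to 1337 ± 476 and the adenosine receptor Adora2a from 76.3 ± 13.5 to 3781 ± 841. Of 21 genes in a list of effectors and related genes 8 rose and 11 fell. The phosphodiesterase Pde4b, which degrades cAMP, rose by 4.69 ± 0.11, and the phospholipase Plcb2 and the potassium channel Kcnj2 fell by 1.98 and 2.74 on the log2 scale. Of 16 genes of the cAMP-dependent kinase and CREB 4 rose and 10 fell, among them Pkib by 2.10, Atf1 by 0.80 and Prkaca by 0.71. The median log2 fold change of these lists lay between -0.62 and 0.25, against -0.001 over all genes tested. Without replicate 1, where fewer genes reached 10 in 3 libraries and 54.2% of all were called, 6 receptors rose and 12 fell of 23, 6 genes of the effector list rose and 9 fell of 21, and 3 genes of the kinase and CREB list rose and 8 fell of 14.

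For oxLDL against control, 0 genes of these lists were called without the block. With the block the receptors held 2 genes higher and 7 lower of 24 tested, where 4.71% of all genes were called, among them Cx3cr1 (-1.54) and Ccr2 (-1.03), which are chemokine receptors coupled to Gαi. Arrb2 (0.16) and Prkar2b (0.61) were higher and Arhgef12 (-0.19) was lower with the block. With LPS present, 0 of 12786 genes were called without the block, and the block called 13.2% of all genes. On leaving out 1 replicate number with the block, between 0 and 2945 genes were called. The block called 3 receptors higher and 8 lower of 26, among them Adora2b (-1.08) and S1pr2 (0.44). It called 2 α subunits lower, Gnas (-0.33) and Gna13 (-0.33). Of 7 receptor kinases and arrestins it called 2 higher, the arrestins Arrb1 (1.01) and Arrb2 (0.40), and 1 lower. Gpsm2 was higher by 0.33 with an adjusted p of 0.0301 with the block. Gnb4, which rose most of its list with LPS, was lower by 0.57 with oxLDL+LPS than with LPS, and Pde4b was lower by 0.36.

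Genes that moved most like each of the 8 across the 12 libraries were found after the mean of each replicate number was subtracted, among genes at 50 or more in at least 3 libraries. These correlations describe 12 libraries that share the LPS step and carry no test. Rgs14 went most closely with Batf2 and Apol9b (r = 0.999 and 0.998), which were at 38.3 and 0.3 in control and at 2151 and 233 with LPS on average. Rgs3 went with the Fc receptor Fcgr1 and the acute-phase gene Saa3 (r = 0.991 and 0.990), and Rgs16 went with Gtpbp2 and Slc25a28 (r = 0.995 for both). Rgs1 went with A630072M18Rik and Rras2 (r = 0.975 and 0.974), both of which were higher with LPS than with oxLDL+LPS on average, at 234 against 141 and at 518 against 450.

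Of the falling genes, Rgs2 went with Nav2 and Mbnl1 (r = 0.995 and 0.994), and Nav2 fell from 518 to 73.3 on average. Rgs10 went with Erp29 and Nat8l (r = 0.997 for both), Rgs18 with 9430038I01Rik and Cyth4 (r = 0.992 and 0.989) and Rgs19 with Mms22l and Josd1 (r = 0.985 and 0.981). The likeness was weakest for Rgs1 and Rgs19.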

How the data were processed

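Per the labels and the study's methods, the authors trimmed reads with Trimmomatic (version 0.32), aligned them to mm10 (GRCm38) with STAR (version 2.5.1b), and counted exonic reads of GENCODE vM4 genes with featureCounts. Whether counting used the strand is not given in the sources used here. The deposited signal, called normalized count here, behaves as whole counts that each library's size factor had divided before rounding, so no count test was run. Read back from the spacing of low values, the size factors put 16.79 to 26.18 M reads behind a library. Groups were compared with limma (version 3.58.1, R 4.3.3) on log2(value + 1), for genes at 10 or more in 3 or more of those libraries. The fit used lmFit and eBayes with a trend, 2-sided, with Benjamini-Hochberg adjustment over all genes tested, a call at an adjusted p under 0.1 and only the libraries compared. Fold changes are on the log2(value + 1) scale and understate those of low genes.

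Deviations from the group means correlated at 0.234 to 0.657 between libraries of the same replicate number in each of the 6 pairs of groups (13482 genes), and at no more than 0.033 otherwise, so a fit with the number as a block is given too. The labels do not say that replicates came from separate animals. The study's methods describe cells of male and female mice pooled for each experiment and then divided into groups. Levels of Xist and Ddx3y differed between the replicate numbers, so their mixtures of animals differed. The p-values measure the spread between these libraries. The 8 genes, the gene lists and the rule for naming genes were chosen with earlier results of these data known. Named genes are the 8, expressed genes with an RGS domain, up to 3 called genes per list and comparison with the smallest p, and the 2 most correlated genes per member. The text gives some of the genes this rule takes, and 1 of them is not reported here. Lengths and positions come from GENCODE vM21. The fits and the reading of the size factors were tested on simulated data. A spreadsheet had turned 25 symbols into dates, and those were not used.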

Additional observations from a re-analysis of the deposited data

Results flagged for a closer look

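The interaction term of Rgs1 was -1.17 ± 0.37 on the log2 scale (SE). It was singled out because oxLDL went with higher Rgs1 in 3 of 3 replicate numbers without LPS (0.37, 0.42 and 0.64) and with lower Rgs1 in 3 of 3 with LPS (-0.79, -0.16 and -1.13). The term did not pass the adjusted threshold in the limma fit over all genes, with an adjusted p of 0.9999 without and 0.657 with the replicate block. The LPS and oxLDL+LPS libraries of replicate 1 held another mixture of male and female transcripts than the control and oxLDL libraries of that number, and without replicate 1 the term was -1.18 ± 0.42.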

How the results depend on the processing

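The calls of Rgs1, Rgs2, Rgs10, Rgs14 and Rgs18 with LPS against control held under every alternative run. Depth limits Rgs16, with a value of 6 in its lowest library, more than the other 7. For oxLDL against control, genes called went from 0 to 601 and members called from 0 to 1 with the replicate block, which on leaving out replicates 1, 2 and 3 gave 214, 139 and 1285 genes and 1, 1 and 2 members, the second being Rgs18 (0.38). For oxLDL+LPS against LPS they went from 0 to 1682 genes and 1 member with the block, and to 71, 2945 and 0 genes and 0, 4 and 0 members on leaving out each number. The 4 were Rgs1, Rgs2 (-0.57), Rgs16 (-0.61) and Rgs19 (0.31). With all 12 libraries in 1 fit 29 genes were called, without oxLDL+LPS replicate 2 91 and without replicate 2 67, so leaving out libraries gave 0 to 91. The interaction was called for 6 genes without oxLDL+LPS replicate 2, for 9 with the block without replicate 2, and for 0 to 6 genes on leaving out libraries without the block. In oxLDL+LPS against oxLDL, the all-library fit ended the call of Rgs19 (adjusted p = 0.111). The block changed no other call of the 8 genes than those of Rgs1. The cause was not tested. The columns rescaled to the same sum turned Rgs14 in oxLDL+LPS against LPS to 0.0258.

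Small uncalled differences changed sign when libraries were left out. For oxLDL against control, Rgs2 ranged from -0.11 to 0.0374, Rgs3 from -0.26 to 0.0647, Rgs10 from -0.10 to 0.13, Rgs16 from -0.53 to 0.62 and Rgs19 from -0.0756 to 0.17. With the block and without replicate 3, Rgs2 was 0.0374 and Rgs10 was 0.082. For oxLDL+LPS against LPS, Rgs3 ranged from -0.26 to 0.15, Rgs16 from -1.19 to 0.014 and Rgs18 from -0.51 to 0.13. The interaction term ranged from -0.69 to 0.0351 for Rgs2, -0.16 to 0.27 for Rgs3, -1.27 to 0.0229 for Rgs16 and -0.0041 to 0.35 for Rgs19, and with the block and without replicate 2 it was -0.16 for Rgs3. The replicate numbers of the labels pair the libraries for oxLDL effects, and for LPS number 1 held another mixture of animals. Alternatives that combine the block with a left-out number, the length per gene and the list counts without replicate 1 were chosen after seeing the data.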
